A study of Mus musculus with 4 samples.

Results

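CD8+ T cells from the lungs of CD4-depleted IPF-LC mice were compared with those of isotype-treated LC mice across all genes. The question was which genes, after CD4 depletion in the fibrotic tumour model, lay at the level of the tumour model without fibrosis. All mice were C57BL/6J, and the cells of every library were sorted from lung on CD3 and CD8. The series has 4 libraries, 1 for each combination of model (named IPF-LC or LC in the labels, with neither spelled out) and antibody (an isotype control or an anti CD4-depleting antibody). The comparison uses 2 of the 4 libraries, CD4-depleted IPF-LC and isotype LC, chosen by those labels. The isotype IPF-LC library was set beside them to show where each gene started, and CD4-depleted LC is given for context. Each group has 1 library, so no value has a replicate error, no test was possible and only sizes are given. The labels do not say how many mice stand behind a library, the age of the mice, or the dose and time of the antibody. Model and antibody both differ between the 2 libraries compared, so their parts in any difference cannot be told apart from this ratio alone.

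CD8+ T cells recognise peptides on MHC class I molecules and kill with perforin and granzymes. Repeated stimulation through the T cell receptor brings up inhibitory receptors such as PD-1 (Pdcd1), TIM-3 (Havcr2) and CTLA-4, and stimulated cells also take up the cell cycle. CD4+ cells include helper cells, which supply cytokines, and regulatory T cells marked by Foxp3, which restrain CD8+ cells; an antibody to CD4 removes both kinds.

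The libraries held between 14946569 and 16217672 rounded expected counts, and between 14657 and 16415 genes with a count. Levels are TMM-scaled CPM (counts scaled to the same library total), and a ratio is log2 of CD4-depleted IPF-LC over isotype LC unless another pair is named. Intervals are exact 95% intervals for the counting error of reads only, and they do not cover differences between mice. The reads carried no molecular identifiers, so amplified copies were counted as separate reads and the intervals may be too narrow. The markers of the sorted cells were near equal: 0 of 18 genes of T cell and CD8 identity were 2-fold apart, with a median ratio of 0.14. Cd8b1 was at 972 CPM in isotype IPF-LC, 654 in CD4-depleted IPF-LC, 693 in isotype LC and 828 in CD4-depleted LC. Cd8a was at 518, 353, 476 and 452 CPM in the same order, and its ratio was -0.43. Cd4 had 0 counts in CD4-depleted IPF-LC and 12 in isotype LC.

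Transcripts of cells outside a CD3+CD8+ gate were present and unequal. The summed level of 22 macrophage and monocyte markers, all above a mean of 1 CPM, was 3686 CPM in isotype IPF-LC, 1252 in CD4-depleted IPF-LC, 3918 in isotype LC and 216 in CD4-depleted LC. In CD4-depleted IPF-LC, 21 of these 22 were at least 2-fold lower than in isotype LC, and Fcgr1, Marco and Siglecf were at 0. The isotype libraries were close in the macrophage and monocyte sum. Yet 9 of the 15 members that reached 10 CPM were 2-fold lower in isotype IPF-LC than in isotype LC, beside 4.1% of all genes. The list's median ratio of isotype IPF-LC to isotype LC was -1.16. The fibroblast and matrix list summed to 308, 61.4, 532 and 19.6 CPM in the same order, with Dcn, Lum, C3 and Col6a1 at 0 in CD4-depleted IPF-LC. Neutrophil markers summed to 122, 31.2, 253 and 7.34 CPM, and endothelial markers to 327, 159, 432 and 141 CPM. Most of the endothelial sum in the CD4-depleted libraries was Pecam1, which T cells share and which was near equal in all libraries. The median ratio of the endothelial list was -3.48. B and plasma cell markers were closer, at 522, 320, 417 and 365 CPM. In bulk libraries fewer cells of a type and less RNA per cell cannot be told apart, and the part of these cells in the results below was not tested except where a value is given.

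**Figure D1:**
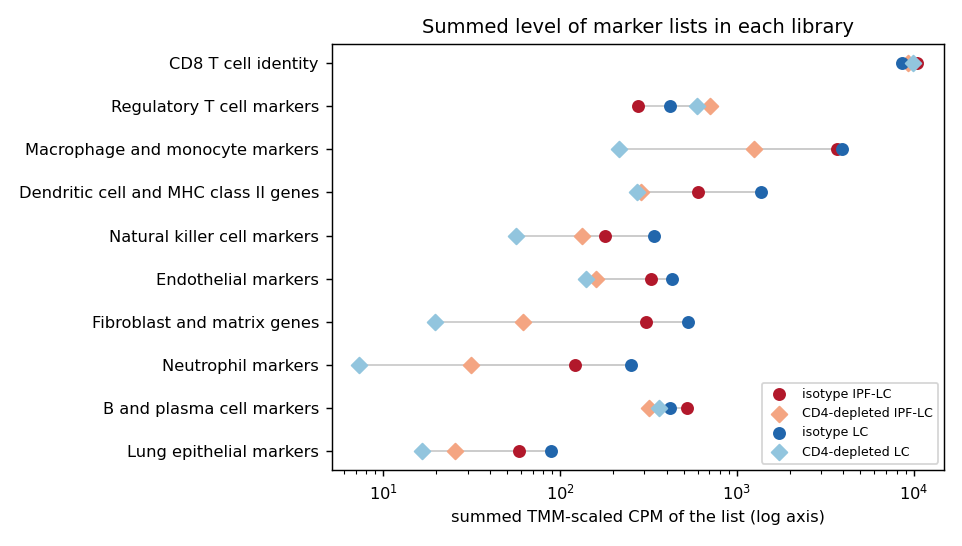
Summed TMM-scaled CPM (log axis) of 10 marker lists in the 4 libraries, 1 symbol per library. The CD8 identity list lies close together in all 4, while macrophage markers reach 3918 CPM in isotype LC and 1252 CPM in CD4-depleted IPF-LC.

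Of the 8433 genes whose mean over the 4 libraries reached 10 CPM, 271 (3.21%) were 2-fold or more higher in CD4-depleted IPF-LC than in isotype LC and 508 (6.02%) lower by as much. Another 4335 genes (51.4%) lay within 0.32 of isotype LC on the log2 scale. Genes in this band are said here to lie at the isotype LC level. The median ratio of all genes was 0.04 and the quartiles were -0.30 and 0.32. The 2-fold threshold has no gap around it: 141 genes lay from 1.8-fold to just under 2-fold higher, and 151 lay so on the lower side. The excess of lower genes was not seen among strongly expressed genes: with a minimum mean of 50 CPM, 106 genes were higher and 69 lower. Among 49 measured genes of the other-cell lists, 38 were lower and 0 higher. Some of them, such as Dcn, C3 and Kdr, were at 0 in CD4-depleted IPF-LC. Such a gene passes the minimum mean only through libraries where it is higher, which favours the lower count. Among 154 genes of the T cell and T cell state lists, 14 were higher, 19 lower and 68 at the level (44.2%).

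Isotype IPF-LC differed from isotype LC in fewer genes, with 161 (1.91%) 2-fold or more higher and 346 (4.1%) lower by as much. These 507 genes are the ones that CD4 depletion could have brought to the isotype LC level. In CD4-depleted IPF-LC, 99 of them (19.5%) lay at the isotype LC level. They comprised 33 of the 161 higher genes (20.5%) and 66 of the 346 lower genes (19.1%). Many more stayed apart on the same side: 57 of the higher genes (35.4%) and 176 of the lower genes (50.9%) were still at least 2-fold from isotype LC. A further 52 and 72 lay between the level and 2-fold on the same side, and 7 and 9 were at least 2-fold apart the other way. Both ratios share the isotype LC library, so a gene with an unusual level there is apart in both, and the counts describe 3 libraries only. Of the genes where 1 of the 3 stood at least 2-fold from the other 2, with those within 0.32 (log2) of each other, CD4-depleted IPF-LC was the odd library for 158, isotype IPF-LC for 76 and isotype LC for 59.

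**Figure D2:**
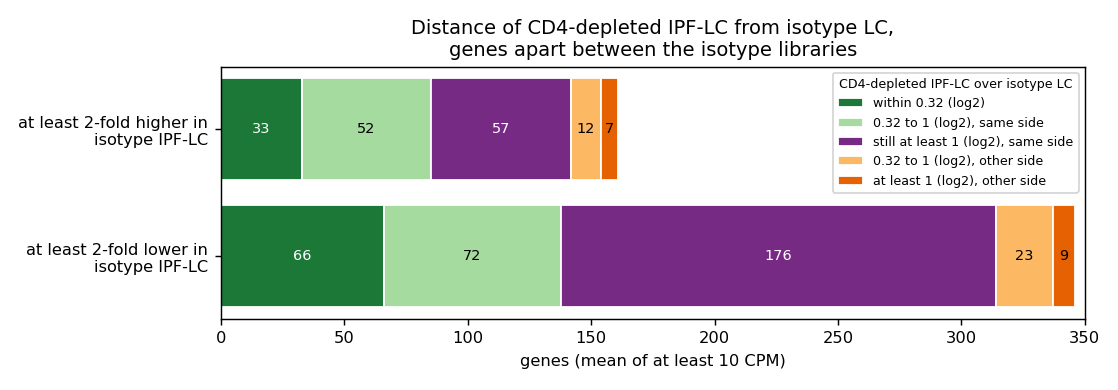
Number of genes (x axis) at least 2-fold higher or lower in isotype IPF-LC than in isotype LC, divided by their distance from isotype LC in CD4-depleted IPF-LC. The dark green segments hold the 33 and 66 genes within 0.32 (log2), and the purple segments the 57 and 176 that stayed at least 2-fold apart.

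Of 31 genes of the T cell and T cell state lists that were at least 2-fold lower in isotype IPF-LC, 8 lay at the isotype LC level in CD4-depleted IPF-LC, 8 lay between, 11 stayed apart and 4 were apart the other way; among all lower genes 19.1% lay at the level. None of the 22 such genes of the other-cell lists reached the level, and 21 stayed apart. Those at 0 in CD4-depleted IPF-LC, such as Dcn and C3, passed the minimum mean only through other libraries and could not lie at the level. Without the genes at least 4-fold lower in CD4-depleted LC than in isotype LC, a step that takes out lower genes by construction, 63 of 206 lower genes lay at the level (30.6%) and 41 stayed apart (19.9%).

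Pdcd1, the gene of PD-1, was at 33.2 CPM in isotype IPF-LC, 122 in CD4-depleted IPF-LC, 136 in isotype LC and 85.6 in CD4-depleted LC. Its ratio to isotype LC was -2.03 in isotype IPF-LC and -0.15 in CD4-depleted IPF-LC, with an interval of -0.24 to -0.06. Gzmk, a granzyme of effector-memory cells, was at 5.70, 34.4, 28.5 and 15.4 CPM in the same order of libraries. In both genes isotype IPF-LC was the lowest library and CD4-depleted LC lay between. Il12rb2, the signalling chain of the receptor for interleukin-12, was at 11.1, 62.6, 61.0 and 26.8 CPM, so that its ratio went from -2.46 in isotype IPF-LC to 0.04. The costimulatory receptor OX40, encoded by Tnfrsf4, was at 2.24, 28.1, 26.3 and 32.5 CPM. Here isotype IPF-LC stood alone, more than 3 log2 units below isotype LC (-3.54), and CD4-depleted IPF-LC had a ratio of 0.09.

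Rgs16, a brake on signalling by G protein-coupled receptors, was at 24.6, 154, 148 and 71.6 CPM. The transcription factor Bhlhe40, which T cells need for cytokine production, was at 236, 922, 816 and 688 CPM. Stat3, which transmits signals of the interleukin-6, interleukin-10 and interleukin-21 receptors, was at 400, 989, 876 and 531 CPM. Il10ra, a chain of the interleukin-10 receptor, was at 16.6, 57, 46.7 and 17.5 CPM, with CD4-depleted LC close to isotype IPF-LC. The ratios to isotype LC of these genes in CD4-depleted IPF-LC lay between 0.06 and 0.29. The aryl hydrocarbon receptor gene Ahr (ratio -0.19), the TGF-beta signal transducer Smad3 (0.28), the serine protease inhibitor gene Serpina3g (-0.05) and the pro-apoptotic Pmaip1 (0.18) were also at the level. In isotype IPF-LC their ratios were -1.17, -1.0, -1.54 and -1.02.

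**Figure D3:**
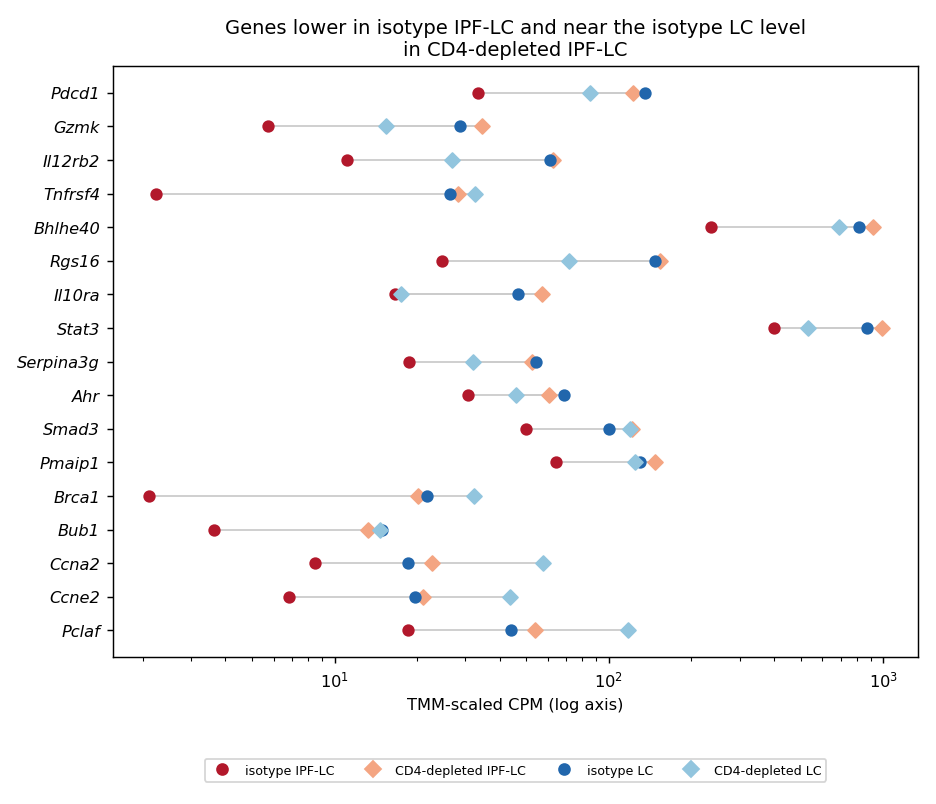
TMM-scaled CPM (log axis) of 17 genes in the 4 libraries, 1 symbol per library. All 17 lay at least 2-fold lower in isotype IPF-LC than in isotype LC and at the isotype LC level in CD4-depleted IPF-LC. The gap of isotype IPF-LC below these 2 libraries is thus the selection itself. The 17 were picked from 66 such genes, and isotype IPF-LC is the lowest library in each row. CD4-depleted LC was the lowest for some genes not shown, such as Osgin1 and Sbno2.

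Cell cycle genes were part of the same set. Of 55 measured genes of the DNA replication and mitosis lists, 13 were at least 2-fold lower in isotype IPF-LC, and 6 of the 13 lay at the isotype LC level in CD4-depleted IPF-LC. Among all genes 4.1% were lower in isotype IPF-LC, and 19.1% of those lay at the level. Brca1, a DNA repair gene, was at 2.11, 20.1, 21.8 and 32.2 CPM. The S-phase cyclin gene Ccne2 was at 6.85, 21.0, 19.6 and 43.4 CPM, and Pclaf, a partner of the replication clamp, at 18.6, 53.7, 44.0 and 118 CPM. CD4-depleted LC was the highest library for all of these. Ccna2 (ratio 0.30), Nusap1 (0.07) and the spindle checkpoint kinase gene Bub1 (-0.16) completed the 6. The primase subunit gene Prim2, outside those 6, had a ratio of -0.05 and was at 3.33, 14.4, 14.9 and 23.0 CPM.

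Not all mitotic genes lay there. Aurkb, a mitotic kinase, was at 5.70 CPM in isotype IPF-LC, 6.48 in CD4-depleted IPF-LC, 20.6 in isotype LC and 20.7 in CD4-depleted LC. Tpx2, a spindle assembly factor, was at 8.51, 7.25, 24.1 and 35 CPM. In these genes the IPF-LC libraries were alike and low. Their ratios were -1.67 and -1.73. Foxm1, a transcription factor that drives mitotic genes, was higher than in isotype LC, at 8.06, 17.4, 6.99 and 26.3 CPM. The proliferation marker Mki67 was at 18.7, 30.9, 33.7 and 93.0 CPM, a ratio of -0.12. The DNA replication list had 22 of 32 measured members at the isotype LC level and 0 that were 2-fold apart, beside 51.4% of all genes at the level. In isotype IPF-LC its median ratio was -0.45, and in CD4-depleted IPF-LC 0.03, a value that turned to -0.07 with scaling by library totals.

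The 33 genes that were high in isotype IPF-LC and at the isotype LC level in CD4-depleted IPF-LC included few known T cell genes. Rmnd1, which acts in mitochondrial translation, was at 51.5, 17.8, 16.6 and 31.5 CPM. Trim56, a ubiquitin ligase of innate antiviral signalling, was at 59.3, 21.6, 25.4 and 24.8 CPM, so that isotype IPF-LC stood alone. Klhl20, Rps6ka5, Serpini1, Nadsyn1, Echdc1, Cep95, Zfp46 and Bace1 had ratios between -0.22 and 0.27 after values of 1.23 to 1.67 in isotype IPF-LC. With a minimum mean of 50 CPM only 1 of 27 higher genes (3.7%) lay at the level, and 15 of 48 lower genes (31.2%). Entpd4b had the lowest ratio to isotype LC in isotype IPF-LC among the at-level genes (-3.94), but it is a near-identical copy of Entpd4, and reads may be divided between the copies in an uncertain way.

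Foxp3 and Ctla4 were among the genes that lay above isotype LC. Foxp3, the master regulator of regulatory T cells, was at 1.47 CPM in isotype IPF-LC, 29.3 in CD4-depleted IPF-LC, 3.88 in isotype LC and 32.5 in CD4-depleted LC. The CD4-depleted libraries were both far above the isotype libraries, and the ratio of CD4-depleted IPF-LC to isotype LC was 2.90 (interval 2.52 to 3.33). Ctla4, an inhibitory receptor gene expressed by regulatory and by activated T cells, was at 39.4, 219, 92.2 and 196 CPM, 2.37-fold above isotype LC (interval 1.16 to 1.34 on the log2 scale). Ikzf4, a partner of Foxp3, was high in CD4-depleted IPF-LC alone, at 6.01, 30.1, 4.47 and 4.53 CPM. Cd4 itself was at 0 counts in CD4-depleted IPF-LC, as given above.

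The regulatory T cell list was mixed. Of its 9 measured members 3 were at least 2-fold higher in CD4-depleted IPF-LC than in isotype LC, 1 was lower and 1 lay at the level. The shares over all genes were 3.21%, 6.02% and 51.4%. Foxp3, 1 of the 3 higher members, passed the minimum mean level only through the CD4-depleted libraries. Ikzf4, also higher, passed it only through CD4-depleted IPF-LC. Passing in this way favours the higher count, so its excess over the share of all genes cannot be read from these members. Ctla4, the remaining higher member, was above the minimum in every library. The lower member was Il2ra, the high-affinity interleukin-2 receptor chain of regulatory and recently activated cells, at 5.50, 13.7, 30.4 and 37.5 CPM. Ikzf2 was at 13.0, 39.7, 23.2 and 38.5 CPM, a ratio of 0.77. Ccr8, a chemokine receptor of tissue regulatory T cells, was at 2.82, 19.8, 15.1 and 6.70 CPM, a ratio of 0.39. The list's median ratio was 0.77, after -1.23 in isotype IPF-LC.

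Maf and Klrg1 were, with Foxp3 and Ctla4, the T cell list genes that went from at least 2-fold below isotype LC to at least 2-fold above it. Maf, a transcription factor of helper, type 17 and regulatory subsets, was at 5.06, 31.1, 11.3 and 22.3 CPM. Klrg1, a receptor of terminal effector cells and some regulatory T cells, was at 4.74, 22.8, 11 and 7.02 CPM. Its ratio of 1.05 was 0.95 with library totals and 0.88 with the deposited TPM, below the 2-fold threshold. The mitotic kinesin gene Kif4 (1.15) and the host gene of a microRNA cluster, Mir17hg (1.02), were in the same class. In the opposite direction, Osm, an inflammatory cytokine of the interleukin-6 family that myeloid cells also make, was at 76.4, 13.1, 27.2 and 7.78 CPM.

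Il17f, an inflammatory cytokine gene, was at 2.5 CPM in isotype IPF-LC, 23.7 in CD4-depleted IPF-LC, 0.906 in isotype LC and 24.3 in CD4-depleted LC, a ratio of 4.66 (interval 3.94 to 5.59). Il17a had 208 counts in CD4-depleted IPF-LC and 0 in isotype LC, at least 68.8-fold higher with 0 set to a floor of 3 counts per library. Ccr6 was at 0.576, 6.42, 0.324 and 8.23 CPM, a ratio of 4.18. Rora, a nuclear receptor gene active in type 17 and innate lymphoid cells, was at 96.8, 255, 101 and 237 CPM, a ratio of 1.33. The CD4-depleted libraries were the higher pair for all 4 genes.

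Over the whole gamma delta and type 17 list, 8 of 14 members whose mean reached 1 CPM were 2-fold higher and 2 lower. At that minimum 785 of 12231 genes were higher and 1843 lower. The minimum is on the mean of the 4 libraries. A member near 0 in isotype LC can thus pass it only through libraries where it is higher, which favours the higher count. With members of at least 10 CPM the list's median was 0.26. Of these 5 members 2 were higher and 3 at the level, beside 3.21% and 51.4% of all genes. Il17f, 1 of the 2 higher members, also passed 10 CPM only through the CD4-depleted libraries, so the same limit holds there. Trdc, the constant gene of the delta receptor chain, was at 31.2, 23.0, 19.3 and 10.5 CPM, a ratio of 0.25, and the scavenger receptor gene Cd163l1 had a ratio of 0.26. Sox13 had 0 counts in CD4-depleted IPF-LC. Ccr4, a chemokine receptor gene typical of regulatory and type 2 helper cells, was at 9.66, 40.0, 3.75 and 96.3 CPM, a ratio of 3.40 (interval 3.03 to 3.83). Gata3, the type 2 regulator, had a ratio of 0.47.

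Among 18 measured genes of inhibitory receptors and exhaustion, 7 were at least 2-fold lower in isotype IPF-LC than in isotype LC and 0 higher. Across all genes 4.1% were lower there and 1.91% higher. In CD4-depleted IPF-LC, Pdcd1 was at the level, Ctla4 lay above it, Tnfrsf9 and Cd38 lay between, and Havcr2, Entpd1 and Cd200 stayed apart. Havcr2, which encodes TIM-3, was at 11.5, 9.95, 68.1 and 21.5 CPM, a ratio of -2.77 (interval -3.03 to -2.53). Isotype LC was its highest library and the IPF-LC libraries were alike. Entpd1, which encodes the ectoenzyme CD39, was at 6.78, 20.2, 47.6 and 10.1 CPM, a ratio of -1.24. Tnfrsf9, which encodes the costimulatory receptor 4-1BB, was at 14.2, 51.3, 99.9 and 41.7 CPM. Its ratio of -0.96 was -1.07 with library totals and -1.22 with TPM. TIM-3 and CD39 are also made by myeloid cells. The macrophage and monocyte markers summed to 3686, 1252, 3918 and 216 CPM in the same order, close between the isotype libraries. The part of these cells in Havcr2 and Entpd1 was not tested.

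Of the other inhibitory and exhaustion genes, Tigit and Tox were closer to isotype LC. Tigit was at 19.1, 55.9, 37.8 and 38.4 CPM, a ratio of 0.56. Tox, a transcription factor of exhausted cells, was at 52.7, 108, 76.7 and 64.1 CPM, a ratio of 0.50. Lag3 was at 1.79, 7.44, 10.6 and 5.04 CPM, under the minimum mean level. Cd160 was at 21.1, 12.0, 26.1 and 14.3 CPM, lower in both CD4-depleted libraries. In CD4-depleted IPF-LC it lay more than 2-fold below isotype LC. Of the list's 18 measured members 4 were at least 2-fold lower than in isotype LC, 1 was higher and 7 lay at the level. Shares among all genes were 6.02%, 3.21% and 51.4%. The list as a whole had a median ratio of -0.15, after -0.57 in isotype IPF-LC.

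Cytotoxic genes lay on both sides of isotype LC. Prf1, which encodes perforin, was at 98.3 CPM in isotype IPF-LC, 79.7 in CD4-depleted IPF-LC, 171 in isotype LC and 70.3 in CD4-depleted LC, a ratio of -1.10 (interval -1.20 to -1.01). Gzmb was at 97.3, 196, 283 and 160 CPM, between the isotype libraries, with a ratio of -0.53. Gzma was at 85.9, 69.9, 108 and 39.5 CPM. Tnfsf10, the death ligand TRAIL, was at 14.1, 3.34, 25.6 and 5.87 CPM, whereas the death ligand gene Fasl was highest in CD4-depleted IPF-LC, at 60.3, 161, 100 and 82.9 CPM. Of 13 measured members of the list, 2 were at least 2-fold lower than in isotype LC, 0 were higher and 3 lay at the level. Across all genes 6.02% were lower, 3.21% higher and 51.4% at the level.

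Among cytokine genes, Ifng was at 27.6, 25.9, 34.5 and 14.1 CPM, a ratio of -0.41. Tnf was at 9.21, 3.02, 20.6 and 7.46 CPM, a ratio of -2.76. The chemokine gene Ccl3 was at 9.02, 5.0, 24.8 and 1.59 CPM, while Ccl5, made by effector and memory CD8+ cells, was highest in CD4-depleted IPF-LC, at 647, 1269, 726 and 404 CPM. Tnf and Ccl3 are also made by macrophages. Spp1, which encodes osteopontin and is a product of macrophages as well as of T cells, was at 1273, 640, 158 and 4.40 CPM. It stayed 4.06-fold above isotype LC in CD4-depleted IPF-LC, and the IPF-LC libraries were the higher pair.

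Effector differentiation genes lay on both sides. Zeb2, a transcription factor of terminal effector cells that myeloid cells also express, was at 6.91, 10.2, 45.9 and 3.96 CPM, a ratio of -2.17. Prdm1 was at 11.8, 23.2, 29.8 and 24.1 CPM, a ratio of -0.36. Tbx21, the regulator of type 1 effector cells, had a ratio of 0.20, Eomes -0.32 and Id2 0.00. Klrc1, the NKG2A receptor gene, was at 139, 99.7, 233 and 123 CPM, a ratio of -1.23. The median of the list was -0.29, after -0.75 in isotype IPF-LC.

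**Figure D4:**
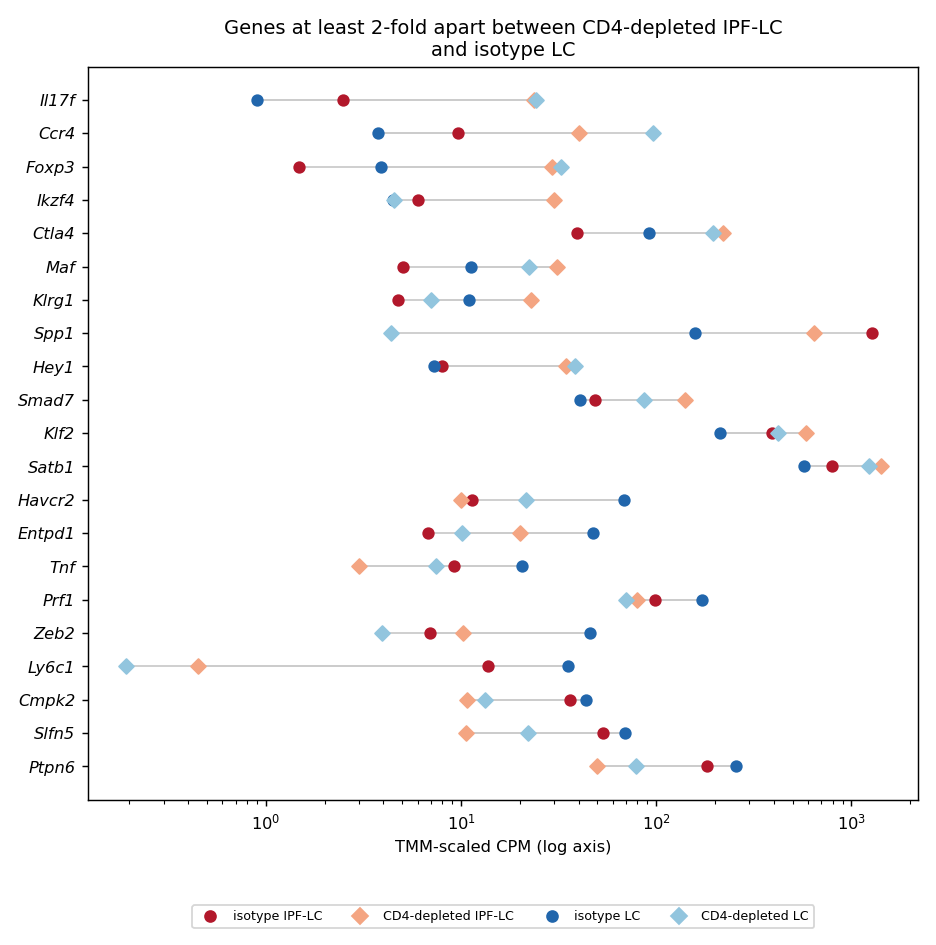
TMM-scaled CPM (log axis) of 21 genes at least 2-fold apart between CD4-depleted IPF-LC and isotype LC, 1 symbol per library, shown after their values were seen. Il17f, Ccr4 and Foxp3 lie higher in both CD4-depleted libraries, Havcr2 and Zeb2 are highest in isotype LC, and Ikzf4 is high in CD4-depleted IPF-LC alone.

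A further group of genes was at like levels in the isotype libraries and 2-fold apart in CD4-depleted IPF-LC. Of 4971 genes within 0.32 (log2) between the isotype libraries, 62 were at least 2-fold higher in CD4-depleted IPF-LC than in isotype LC and 143 (2.88%) were lower. Smad7, the inhibitory Smad that TGF-beta induces, was at 48.4, 141, 40.9 and 86.8 CPM, a ratio of 1.78. Hey1, a target of Notch, was at 8.0, 34.6, 7.25 and 38.4 CPM, a ratio of 2.25. Both CD4-depleted libraries were higher for Smad7 and Hey1. Of 10 measured members of the Notch list Hey1 was the 1 higher, 1 was lower and 5 lay at the level. Among all genes these shares were 3.21%, 6.02% and 51.4%. Hey1 was under 10 CPM in both isotype libraries and passed the minimum mean only through the CD4-depleted libraries. The list's median ratio was 0.06. The lower member, Dtx1, was at 113, 40.1, 87.9 and 44.2 CPM, a ratio of -1.13, and was low in both CD4-depleted libraries.

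In the TGF-beta list 3 of 16 measured members were at least 2-fold higher than in isotype LC and 1 lower. The shares over all genes were 3.21% and 6.02%. Beside Smad7 the higher members were Smurf1, a ubiquitin ligase of the pathway, at 27.6, 46.2, 15.8 and 33.6 CPM, and Furin, the protease that processes the TGF-beta precursor, at 21.8, 77.1, 34.9 and 82.2 CPM. The lower member was the receptor gene Tgfbr1, at 51.1, 25.2, 81.0 and 35.5 CPM, low in both CD4-depleted libraries. The ligand gene Tgfb1 had a ratio of -0.07. Itgae, the CD103 integrin gene that TGF-beta induces in resident T cells, was at 211, 169, 99.0 and 226 CPM, a ratio of 0.77. The list's median was 0.28. The ratio of Furin fell short of 2-fold with TPM (0.95).

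Genes of naive and recirculating T cells held their level or lay higher. Il7r (ratio 0.01), Ccr7 (0.01) and Tcf7 (0.07) were near isotype LC. Klf2, which maintains the exit receptor S1pr1, was at 392, 583, 213 and 420 CPM, a ratio of 1.45. Foxo1, which controls Klf2 and Il7r, was at 216, 424, 158 and 295 CPM, a ratio of 1.43. The chromatin organiser gene Satb1 was at 794, 1412, 571 and 1235 CPM, a ratio of 1.31, and S1pr1 itself had a ratio of 0.81. CD4-depleted IPF-LC was the highest library for Klf2, Foxo1 and Satb1, and isotype LC the lowest. Of 20 measured members of this list, 3 were higher, 1 lower and 13 at the level, beside 3.21%, 6.02% and 51.4% of all genes. The lower one, Ly6c1, is also an endothelial gene and was at 13.8, 0.449, 35.5 and 0.191 CPM.

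Residency genes were lower in part. Itga1, the CD49a integrin gene, was at 23.2, 8.66, 25.6 and 1.40 CPM, a ratio of -1.56 (interval -1.85 to -1.28). Cd69 (-0.18) was near the level and Cxcr6 was at 104, 227, 164 and 159 CPM, a ratio of 0.47. Cd226, an activating receptor that shares ligands with Tigit, was at 61.3, 23.0, 62.5 and 47.5 CPM, a ratio of -1.44 that shrank to -0.49 with TPM.

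Genes of the type I interferon response were lower as a group. None of 39 measured members was at least 2-fold higher than in isotype LC, 9 were lower and 14 lay at the level, beside 6.02% lower and 51.4% at the level among all genes. The list's median ratio was -0.61, and it was -0.17 in isotype IPF-LC, where 0 members were 2-fold apart. Cmpk2, an interferon-induced nucleotide kinase, was at 36.0, 10.7, 43.4 and 13.2 CPM. Slfn5, a growth regulator of the Schlafen family, was at 53.5, 10.7, 68.9 and 21.9 CPM. The deconjugase gene Usp18, a negative regulator of the interferon receptor, was at 40.4, 15.6, 50.9 and 16.2 CPM. Oas1a, a sensor of double-stranded RNA, was at 23.0, 8.47, 24.6 and 13.0 CPM. For each of these both CD4-depleted libraries were lower than both isotype libraries, and the ratio between the isotype libraries was no further from 0 than -0.37.

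Oasl2, Ifit2, Dhx58, Slfn8 and Isg20 were the other lower members, with ratios between -1.22 and -1.03. Ifit3 had a ratio of -0.29, and Irf7 lay at the level (-0.12). Macrophages express many of these genes too, and the summed level of their markers was lower in the same libraries (3918 CPM in isotype LC, 1252 in CD4-depleted IPF-LC); the part of this in the list's ratios was not tested. The list of interferon-gamma-induced GTPases and antigen processing had 1 member higher (Socs1), 1 lower (Iigp1, -1.47) and 12 of 27 at the level. Across all genes 3.21% were higher, 6.02% lower and 51.4% at the level.

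Promoters of lower interferon genes are shown because these genes were lower together. The interferon-stimulated response element was searched as GAAA, any 2 bases, GAAA, on both strands in the 250 bases before each start, in RefSeq sequences of build GRCm38.p6, which is older than the build of the counts. Of the 9 lower genes 7 had a promoter in the table, and 3 of the 7 (42.9%) held the motif. Among the other 24 list members with a promoter 12 held it (50%), and among all 6745 measured genes with a promoter 234 did (3.47%). The first share rests on 7 genes, and a match describes the letters only. The 3 promoters follow, 5′ to 3′ on the gene's strand and ending 1 base before the start, with the motif in capitals. Oas1a lies on the minus strand at chr5:120907526-120907775, Slfn5 on the plus strand at chr11:82951852-82952101, and Slfn8 on the minus strand at chr11:83020811-83021060, for 1 of its 2 starts in the table. In Oas1a the capitals hold 2 overlapping matches, and in Slfn8 the match lies on the opposite strand.
Oas1a: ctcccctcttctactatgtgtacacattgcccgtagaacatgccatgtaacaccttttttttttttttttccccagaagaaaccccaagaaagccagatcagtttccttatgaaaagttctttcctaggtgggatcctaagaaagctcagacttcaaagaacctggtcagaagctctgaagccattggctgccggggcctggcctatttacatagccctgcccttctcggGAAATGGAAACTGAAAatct
Slfn5: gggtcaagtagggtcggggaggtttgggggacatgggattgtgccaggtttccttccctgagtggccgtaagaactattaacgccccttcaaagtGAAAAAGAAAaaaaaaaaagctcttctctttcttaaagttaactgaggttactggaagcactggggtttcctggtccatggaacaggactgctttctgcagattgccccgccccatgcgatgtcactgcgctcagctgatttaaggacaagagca
Slfn8: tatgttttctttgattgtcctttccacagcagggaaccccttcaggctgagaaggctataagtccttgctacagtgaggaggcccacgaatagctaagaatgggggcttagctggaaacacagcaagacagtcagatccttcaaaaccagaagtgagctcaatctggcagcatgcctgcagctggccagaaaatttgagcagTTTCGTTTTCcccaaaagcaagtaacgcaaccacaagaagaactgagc

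The AP-1 element, searched as TGANTCA on both strands in the same window, was held by 3 of 49 promoters (6.12%) of the genes that were low in isotype IPF-LC and at the level in CD4-depleted IPF-LC, beside 338 of all 6745 (5.01%), so the share was near the background.

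Immediate early genes were divided. Of 19 measured members 6 were at least 2-fold lower than in isotype LC and 2 higher, beside 6.02% lower and 3.21% higher among all genes. Fos was at 392, 190, 461 and 207 CPM (ratio -1.28), Jun at 347, 231, 500 and 303 CPM (-1.11) and Fosb at 48.0, 24.9, 100 and 17 CPM (-2.01). Atf3, a stress-induced factor, was at 68.1, 49.0, 195 and 31.1 CPM. Jund lay the other way, at 680, 813, 378 and 574 CPM. So did the phosphatase gene Dusp2, which restrains MAP kinases, at 139, 265, 68.7 and 222 CPM. Nr4a1, an early target of the T cell receptor, had a ratio of -0.26. Such genes also respond to handling of the cells, and the part of handling was not tested.

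Signalling genes downstream of cytokine receptors were higher in part. Jak2 was at 46.4, 147, 61.7 and 107 CPM, 2.38-fold above isotype LC. The feedback inhibitor genes Socs1, at 47.2, 84.6, 39.7 and 56.9 CPM, and Cish, at 35.2, 95.9, 47.0 and 53.7 CPM, had ratios of 1.09 and 1.03. Both crossed below 2-fold under another scaling. Rela, a subunit of NF-kappa B, was at 296, 436, 212 and 346 CPM. In that list 11 of 17 measured members lay at the level, beside 51.4% of all genes. Of 23 T cell receptor signalling genes 13 lay at the level, near the 51.4% of all genes, and 1 was 2-fold apart. That 1 gene, Ptpn6, which encodes the phosphatase SHP-1 and is abundant in myeloid cells, was at 183, 49.5, 258 and 79.0 CPM, a ratio of -2.38.

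Receptor genes for chemokines, cytokines and costimulation lay on both sides of isotype LC. Of 19 measured chemokine receptor and homing genes, Ccr4 was higher, Ccr1, a myeloid receptor, was lower (-4.13), and 7 lay at the level, beside 51.4% of all genes. Ccr2, which guides cells to inflamed tissue, was at 15.5, 60.3, 76.3 and 102 CPM, with isotype IPF-LC well below the other libraries and a ratio of -0.34. Cxcr3, the receptor for interferon-induced chemokines, was at 44.8, 126, 74.2 and 115 CPM, higher in both CD4-depleted libraries. Of 20 cytokine receptor genes 12 lay at the level, 0 were higher and 3 lower (Il1r2, Il2ra and Il6ra). Among 11 costimulatory receptor genes Tnfrsf25, at 14.1, 17.5, 6.92 and 33.6 CPM, and Slamf1, at 26.0, 40.9, 16.9 and 45.7 CPM, were higher and Cd226 was lower. Of 6 measured natural killer cell markers 4 were lower and 0 higher, beside 6.02% and 3.21% of all genes. Among the lower ones Klrb1c, which encodes the NK1.1 antigen, was at 16.3, 7.89, 16.1 and 4.85 CPM.

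Arf6, a GTPase of membrane traffic, was at 146, 314, 52.7 and 214 CPM, a ratio of 2.57. Lrig1, a negative regulator of growth factor receptors, was at 27.1, 111, 17.7 and 76.4 CPM, a ratio of 2.65. Prkaca, the catalytic subunit of protein kinase A, had a ratio of 2.51, Ankrd13a 2.43, Alyref 2.49 and Lrrc47 2.39. These genes, from outside the lists, were among the 15 highest ratios. Of the BCL2 family, the anti-apoptotic Mcl1 was at 254, 524, 180 and 343 CPM, a ratio of 1.54. Rn7s1, a copy of the signal recognition particle RNA, had 0 counts in isotype LC and 221 in CD4-depleted IPF-LC, but its reads cannot be placed with certainty among near-identical copies.

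Many of the low ratios were in genes that other cells are known for. Thbs1, a matrix glycoprotein gene of platelets, monocytes and stroma, was at 46.7, 11.9, 662 and 14.9 CPM, 55.6-fold lower than in isotype LC. Il1r2, a decoy receptor of neutrophils and regulatory T cells, was at 1.98, 12.2, 79.3 and 6.38 CPM. Csf1r, the receptor that macrophages need to survive, was at 40.1, 4.55, 148 and 0.128 CPM. C3, a complement component, had 0 counts in CD4-depleted IPF-LC and 1456 in isotype LC, at least 489.5-fold lower. Kdr, the endothelial receptor for vascular growth factor, had 0 against 612 counts, at least 206-fold lower. Pecam1, shared by endothelium and T cells, was at 134, 136, 145 and 128 CPM. The class II genes H2-Ab1 (-2.98), H2-Eb1 (-2.90), H2-Aa (-2.71) and Cd74 (-2.54) were all lower than in isotype LC.

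**Figure D5:**
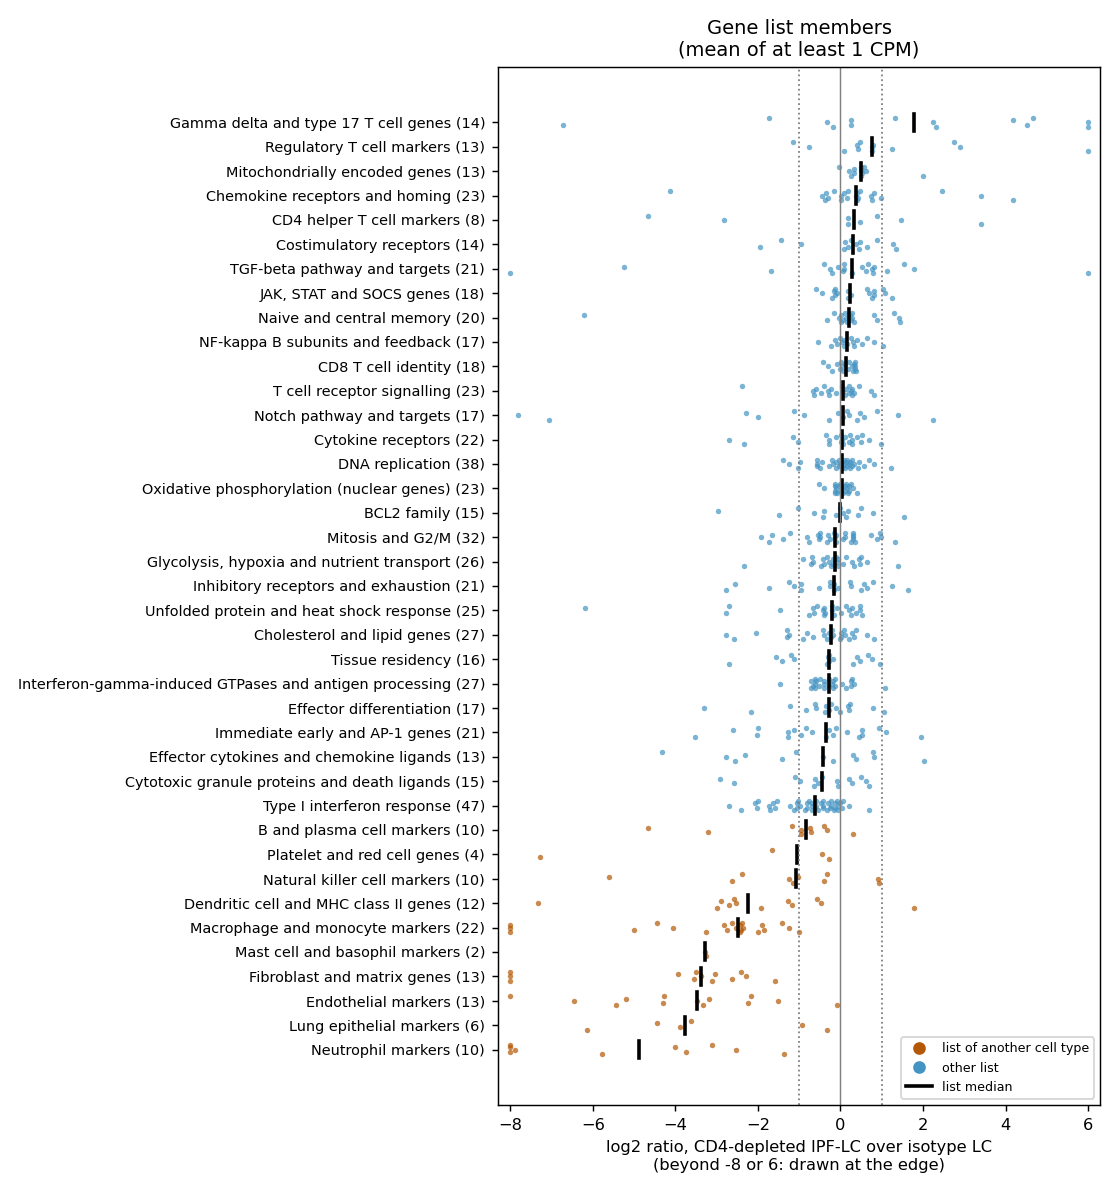
Log2 ratio of CD4-depleted IPF-LC over isotype LC (x axis) for the members of 39 gene lists with a mean of at least 1 CPM, 1 point per gene, with the list median as a bar and 2-fold as dotted lines. At this minimum level the type 17 and regulatory T cell lists have the highest medians (1.79, or 1.6 with 0 counts set to the floor of 3, and 0.77); with members of at least 10 CPM the type 17 median is 0.26. At 1 CPM every list of another cell type has a median below 0.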

How the data were processed

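Per the labels' protocols, low-input cDNA (SMART-Seq v4) was made into libraries with NEBNext Ultra II reagents. RSEM 1.3.3, STAR 2.7.11a, MultiQC 1.25.2 and fastp 0.23.4 are listed in the submitters' processing notes, with no roles, beside build GRCm39; the annotation release is not given in the sources used here. The authors deposited, for each of 4 libraries, a table of 55401 genes with expected counts, which are estimated reads per gene and not normalised (5.49 to 5.89% not whole). The deposited TPM, scaled for length and library, served as an alternative, and the deposited FPKM was not used. Near-identical and overlapping genes are uncertain. Some list members are not reported here by name.

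Expected counts were rounded and scaled with the TMM factors of edgeR 4.0.16 (R 4.3.3) over the 4 libraries. Log2 ratios used a prior count of 0.5, with exact conditional binomial 95% intervals (scipy 1.17.1); both were tested on simulated data. Genes needed a mean of at least 10 CPM, and members for list medians 1 CPM. A fold against 0 counts uses a floor of 3 counts per library. With 1 library a side no test was run.

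There were 39 lists (722 of 733 symbols matched) and 221 named genes: the 15 highest and 15 lowest ratios, 10 at-level, 8 still-apart and 8 newly apart genes in each direction, up to 4 members of each list, and a fixed set. Other genes in the text were chosen after their values were seen, and the members and lists with earlier results of these data known. Alternatives were library totals, DESeq2 1.42.0 size factors, TPM with a pseudocount of 1, other minimum levels and folds, a prior count of 2, and leaving out genes at least 4-fold lower in CD4-depleted LC. Promoters came from RefSeq (GRCm38.p6) by symbol, for 6745 measured genes.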

Additional observations from a re-analysis of the deposited data

How the results depend on the processing

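No paired analysis was possible because each group has 1 library and no result comes from a test; for the same reason no library could be left out. Of 48 alternative counts of genes 29 stayed within 1.5 times the main count. With a minimum mean of 1 CPM, 785 genes were at least 2-fold higher in CD4-depleted IPF-LC than in isotype LC and 1843 lower, and 96 of the genes higher and 213 of those lower in isotype IPF-LC lay at the isotype LC level. With 50 CPM these counts were 106, 69, 1 (of 27) and 15 (of 48), and 2552 genes lay at the level. Fewer genes were tested (4253). At 1.5-fold 918 were higher and 1089 lower, and at 4-fold 22 and 202. With the whole counting interval beyond 2-fold 173 were higher. Without genes at least 4-fold lower in CD4-depleted LC 285 were lower, by construction. With the level set at 1.5-fold 63 and 119 genes lay at it. Of genes at least 3-fold apart between the isotype libraries, 2 and 18 lay at the unaltered level. Scaling by library totals gave 207 higher and 617 lower genes, DESeq2 size factors 257 and 530, and TPM 197 and 560. The median ratio of all genes was 0.04 with TMM, -0.06 with library totals and -0.07 with TPM, so ratios near 0 can change sign. The effector cytokine list turned from -0.41 to 0.063 with members of at least 10 CPM; the cause was not tested. The list medians of cytokine receptors, T cell receptor signalling, Notch, DNA replication and oxidative phosphorylation, all within 0.1 of 0, changed sign with library totals. Depth limits genes of a few CPM, where the counting interval alone spans up to several fold; mouse-to-mouse spread was not measured.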

Other observations

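Of the metabolism and stress lists together, 57 of 105 measured genes (54.3%) lay at the isotype LC level in CD4-depleted IPF-LC, near the 51.4% of all genes. Of 23 nuclear genes of oxidative phosphorylation 20 lay at the level and 0 were 2-fold apart, with a median ratio of 0.03. The 12 measured mitochondrially encoded genes were also under 2-fold apart, with a median of 0.49, and summed to 16217 CPM in isotype IPF-LC, 17795 in CD4-depleted IPF-LC, 13523 in isotype LC and 12927 in CD4-depleted LC. Of 26 genes of glycolysis, hypoxia and nutrient transport 12 lay at the level. Ldha, which makes lactate, had a ratio of 0.13. Slc16a3, a lactate exporter gene, was at 8.70, 12.6, 64.0 and 7.72 CPM, a ratio of -2.34, and isotype LC stood alone. Egln3, an oxygen-sensing hydroxylase gene, had a ratio of 1.39. In the cholesterol and lipid list 4 of 23 were lower, beside 6.02% of all genes. Among them were Idi1, an enzyme of sterol synthesis (-1.25), and Lpl (-2.57) and Cd36 (-2.76), which macrophages and endothelium also express.

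Hspa1a, which encodes an inducible heat shock protein, was at 48.8, 5.77, 39.7 and 24.9 CPM and its near-identical copy Hspa1b at 50.9, 5.90, 38.2 and 27.3 CPM; reads may be divided between the copies in an uncertain way. Hsph1, a partner chaperone, was at 210, 69.6, 192 and 108 CPM. These were the 3 members at least 2-fold lower among 23 measured in the list of unfolded protein and heat shock response. Another 9 lay at the level and 0 were higher, with a list median of -0.21. Across all genes 6.02% were lower and 51.4% at the level. Such genes also respond to handling of the cells, which was not tested. In the BCL2 family Mcl1 was 2-fold higher and Bid lower (-1.02), while Bcl2 (0.13) and Bcl2l11 (0.06) lay at the level.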
